A study of Mus musculus with 9 samples.

Results

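The 47 genes described here encode the machinery of mitosis and cytokinesis: mitotic cyclins and kinases, spindle, kinetochore and checkpoint proteins, condensin and other chromosome proteins, and the proteins of the cleavage furrow. They were chosen by name, with earlier results of these data known, from the 53342 genes of the count table. All 47 were found once each and all 47 had enough counts to be tested, among 12511 genes tested in all. The RNA came from mouse macrophages grown in culture from the bone marrow of wild-type (WT) C57BL/6J mice of both sexes aged 8 to 12 weeks. The 3 groups were cells given Torin-2, which blocks the ATP site of the mTOR kinase, cells given rapamycin, an inhibitor of the mTOR complex mTORC1, and cells given vehicle, with 3 samples each. In every group, vehicle included, the agent was present for 2 h before a homogenate of mouse spinal cord was added for 24 h at 1% weight per volume, so no comparison with cells that had received no homogenate is given here. The homogenate came from pooled cords of mice up to 20 weeks old with the meninges taken off, marrow of different animals was not mixed, and doses of Torin-2 and rapamycin were not stated in the labels.

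Mitosis begins when CDK1, bound to cyclin A or cyclin B, becomes active, and it ends when the anaphase-promoting complex marks cyclin B and securin for destruction so that sister chromatids part. Most of these genes are transcribed in a wave late in the cell cycle, through the DREAM and B-MYB–FOXM1 complexes, which act at a promoter element called the CHR (cell cycle genes homology region), often together with NF-Y at CCAAT boxes. Macrophages grown from marrow in growth factor divide for some days in culture, and mTOR links growth signals to entry into the cycle. In these bulk samples, fewer dividing cells and less of a transcript per cell cannot be told apart.

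Promoters are shown for 6 of the genes, so that genes whose transcripts changed differently can be compared letter by letter. Ube2c (ENSMUSG00000001403), Cdc20 (ENSMUSG00000006398) and Ccnb2 (ENSMUSG00000032218) were higher with Torin-2 than with rapamycin. Cdk1 (ENSMUSG00000019942) and Ccnb1 (ENSMUSG00000041431) fell with both agents, and Spc25 (ENSMUSG00000005233) fell most with Torin-2. Against vehicle, Ube2c rose with Torin-2, Cdc20 fell with rapamycin and Ccnb2 passed with neither agent. Ccnb1 too was higher in every Torin-2 library than in every rapamycin library, though that difference did not pass. Each line runs 5′ to 3′ in the direction of transcription, from 250 bases before to 50 bases after the RefSeq start (RefSeq, GRCm38.p6), so that its last 50 bases are the beginning of the first exon. Capitals mark the CHR, searched as TTTGAA or, on the other strand, as TTCAAA, and also as TTCGAA. They also mark the CCAAT box, searched as CCAAT or, on the other strand, as ATTGG.
Ube2c (chr2:164769679-164769978, plus strand): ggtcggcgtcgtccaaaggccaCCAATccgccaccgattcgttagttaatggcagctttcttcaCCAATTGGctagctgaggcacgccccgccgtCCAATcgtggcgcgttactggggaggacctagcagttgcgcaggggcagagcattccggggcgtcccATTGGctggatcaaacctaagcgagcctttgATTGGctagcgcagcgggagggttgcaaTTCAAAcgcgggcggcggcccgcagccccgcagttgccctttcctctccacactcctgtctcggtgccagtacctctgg
Cdc20 (chr4:118437294-118437593, minus strand): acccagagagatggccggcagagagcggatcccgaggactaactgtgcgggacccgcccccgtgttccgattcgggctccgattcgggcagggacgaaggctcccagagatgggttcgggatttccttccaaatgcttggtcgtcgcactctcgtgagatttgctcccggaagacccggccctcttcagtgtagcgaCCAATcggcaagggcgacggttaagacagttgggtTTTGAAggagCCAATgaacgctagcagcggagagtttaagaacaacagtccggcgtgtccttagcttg
Ccnb2 (chr9:70421505-70421804, minus strand): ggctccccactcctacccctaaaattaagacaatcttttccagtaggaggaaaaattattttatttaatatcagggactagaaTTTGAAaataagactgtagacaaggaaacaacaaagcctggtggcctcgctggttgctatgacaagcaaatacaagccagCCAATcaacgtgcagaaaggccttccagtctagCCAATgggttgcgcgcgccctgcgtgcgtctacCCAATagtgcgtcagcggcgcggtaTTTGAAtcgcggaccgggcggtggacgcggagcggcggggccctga
Ccnb1 (chr13:100786437-100786736, minus strand): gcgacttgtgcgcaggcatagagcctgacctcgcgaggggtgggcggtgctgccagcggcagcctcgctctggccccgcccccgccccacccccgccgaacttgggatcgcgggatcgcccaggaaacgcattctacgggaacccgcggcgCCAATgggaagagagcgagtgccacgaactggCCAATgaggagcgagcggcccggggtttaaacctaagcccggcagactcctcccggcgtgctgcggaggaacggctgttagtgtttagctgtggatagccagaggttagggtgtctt
Cdk1 (chr10:69352863-69353162, minus strand): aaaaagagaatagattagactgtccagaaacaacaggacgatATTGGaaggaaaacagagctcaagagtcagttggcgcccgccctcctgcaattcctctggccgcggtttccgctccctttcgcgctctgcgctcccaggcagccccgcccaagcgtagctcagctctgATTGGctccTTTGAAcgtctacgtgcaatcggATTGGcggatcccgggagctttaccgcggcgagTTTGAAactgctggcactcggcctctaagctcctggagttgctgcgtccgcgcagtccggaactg
Spc25 (chr2:69206164-69206463, minus strand): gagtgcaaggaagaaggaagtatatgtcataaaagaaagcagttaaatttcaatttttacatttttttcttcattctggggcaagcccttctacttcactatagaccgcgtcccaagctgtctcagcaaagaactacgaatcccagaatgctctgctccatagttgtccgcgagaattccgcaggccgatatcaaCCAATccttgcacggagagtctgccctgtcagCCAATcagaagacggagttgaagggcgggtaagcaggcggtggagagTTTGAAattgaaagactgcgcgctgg

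In Ube2c a CHR stood at -29 and 6 CCAAT boxes upstream of it, of which 1 CCAAT and 1 ATTGG share letters. Cdc20 had a CHR at -18 between CCAAT boxes at -53 and -8. Ccnb2 had 3 CCAAT boxes, each 33 bases from the next, and a CHR 5 bases past the start, besides one at -167. Ccnb1 had CCAAT boxes 32 bases apart, at -99 and -67, and no CHR in these letters. Cdk1 had CHR matches at -71 and -15, CCAAT boxes at -208, -80 and -48, the last pair 32 bases apart, and an E2F motif at -131 that is not in capitals. Spc25 had CCAAT boxes at -55 and -23 with a CHR at 25. In the letters searched, CCAAT boxes stood in all 6 promoters and a CHR in all but that of Ccnb1, whether the gene fell or not. Other forms of the CHR were not searched, so a promoter without a match may still hold one.

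Of the 47 genes, 40 had a promoter in the RefSeq table, and those not matched were Ccna2, Foxm1, Aurkb, Kif20a, Tpx2, Stmn1 and Smc4. A CHR was found in 32 of the 40 (80.0%), against 21.7% of the 27025 genes of the table and 16.5% of the 9283 of those that were tested. Within 50 bases of the start a CHR was found in 28 (70.0%), against 6.12% of all genes of the table and 4.54% of those tested. A CCAAT box was found in 30 (75%), against 41.1% and 43.0%, and both elements in 28 (70.0%), against 8.61% and 6.98%. A pair of CCAAT boxes 31 to 33 bases apart was found in 8 (20.0%), against 1.11% and 2.11%. The E2F motif, searched on both strands as TTTCCCGC, TTTCGCGC, TTTGCCGC and TTTGGCGC, was found in 4 (10.0%), namely Cdk1, Kif15, Ncapd2 and Ncapg, against 2.6% of all genes of the table and 4.82% of those tested. In 41 genes of DNA replication, listed for comparison, a CHR was found in 19.5%, which is near the background. A CCAAT box was found in 63.4% of these and an E2F motif in 43.9%, both above the background. Neither a CHR nor a CCAAT box in the letters searched was found in Birc5, Mad2l1, Ncaph, Nuf2, Nusap1 and Tacc3. Of the genes that were higher with Torin-2 than with rapamycin, 8 of 9 with a promoter held a CHR, as did 24 of the other 31. A match is a match of letters and shows no binding.

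**Figure D1:**
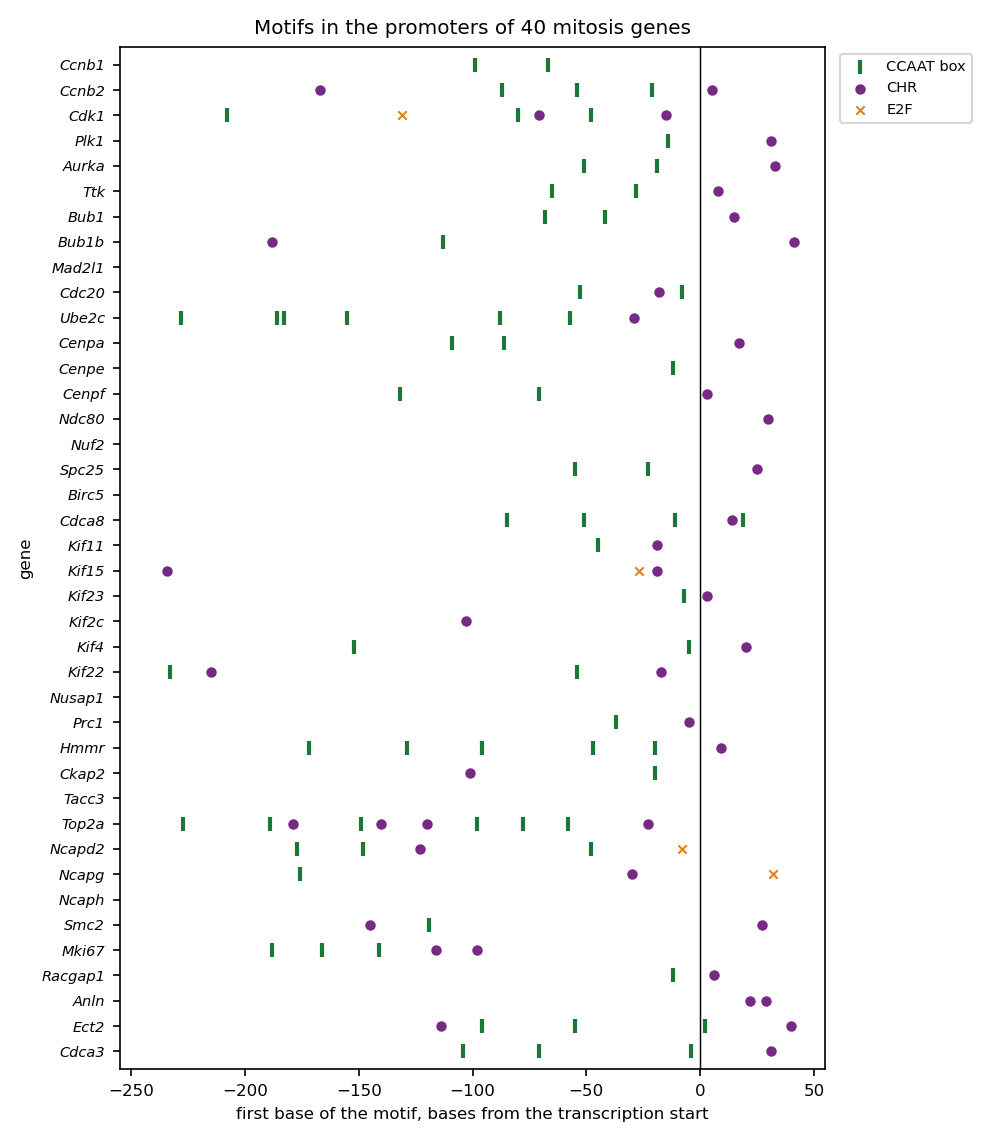
Positions of CHR (circles), CCAAT box (bars) and E2F (crosses) matches in the promoters of 40 mitosis genes, as the distance in bases of the first letter of the match from the RefSeq start (vertical line at the start; genes run down the page by role). CHR matches gather near the start, within 50 bases of it in 28 genes, with CCAAT boxes mostly upstream.

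Libraries held 16116666 to 24044329 counts, of which the 47 genes took 0.0418% to 0.0532% with Torin-2, 0.0310% to 0.0408% with rapamycin and 0.0554% to 0.114% with vehicle. Levels are given as CPM, counts scaled to the library total and its TMM factor. The macrophage markers Lyz2, Cd68, Csf1r and the 9 others listed summed to 15772 to 17655 CPM with Torin-2, 20898 to 22939 CPM with rapamycin and 13665 to 18306 CPM with vehicle. Markers of marrow progenitors and granulocyte precursors, cells that divide in marrow, summed to 0.616 to 0.903 CPM with Torin-2, 0.426 to 1.35 CPM with rapamycin and 1.06 to 1.76 CPM with vehicle. In that list 8 of 9 genes stayed under 1 CPM in all libraries, with Mpo, Ctsg and Ms4a3 at 0. All markers of lymphocytes, erythroid cells, mast cells and dendritic cells stayed under 1 CPM too. The neutrophil list summed to 230 to 261 CPM with Torin-2, 42.5 to 57.1 CPM with rapamycin and 20.2 to 23.7 CPM with vehicle. Of its 8 genes, 5 stayed under 1 CPM in all libraries, namely Ltf, Camp and, at 0 in every library, Ly6g, S100a9 and Retnlg. The 3 genes of the list that were tested did not move as one. Their log2 fold changes with Torin-2 against vehicle ran from -0.86 to 4.64. Fibroblast and mesenchymal markers summed to 10.7, 9.88 and 3.45 CPM in Torin-2 replicates 1, 2 and 3, to 85.5, 61.0 and 14.3 CPM in rapamycin replicates 1, 2 and 3, and to 41.7, 30.5 and 10.3 CPM in vehicle replicates 1, 2 and 3. Replicate 3 was the lowest of its group each time, and 4 of the 9 genes stayed under 1 CPM. Oligodendrocyte transcripts summed to 366 to 423 CPM with Torin-2, 691 to 846 CPM with rapamycin and 480 to 612 CPM with vehicle. Microglia markers summed to 238 to 262 CPM with Torin-2, 275 to 312 CPM with rapamycin and 355 to 387 CPM with vehicle. Of these, Sall1 and Siglech stayed under 1 CPM in all libraries. Astrocyte markers summed to at most 35.3 CPM in a library, neuron markers to 14.3 CPM and endothelial markers to 9.68 CPM. The part of these other cells in the results that follow was not tested.

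The summed level of the 47 genes was 434, 415 and 526 CPM in the Torin-2 libraries, 321, 324 and 427 CPM in the rapamycin libraries and 832, 1090 and 553 CPM in the vehicle libraries, in each case for replicates 1, 2 and 3. Every treated library lay below every vehicle library, and rapamycin replicate 3 was above Torin-2 replicate 2. Vehicle replicate 3 was the vehicle library nearest to the treated ones: it had the lowest vehicle value for 46 of the 47 genes, and vehicle replicate 2 had the highest for 43. With the agents the order differed, since replicate 3 had the highest Torin-2 value for 44 genes and the highest rapamycin value for 42. The median coefficient of variation of the 47 genes among replicates was 21.2% with Torin-2, 23.5% with rapamycin and 35.6% with vehicle, against 7.54%, 9.37% and 8.6% over all genes tested.

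Torin-2 against vehicle asks how the genes differed under an inhibitor of the mTOR kinase itself. Of the 47 genes 37 fell, 2 rose and 8 did not pass (edgeR's quasi-likelihood test, Benjamini-Hochberg adjusted p under 0.05 over 12511 genes). Among all genes tested 32.9% fell and 32.5% rose, so that falls were far more frequent among the mitosis genes than in the background and rises less. The median log2 fold change was -1.30, a 2.46-fold lower level, against -0.01 over all genes tested. A fall of at least 2-fold was seen for 30 of the 47, where 10.6% of all genes fell that far. For 31 genes every Torin-2 library was below every vehicle library, as for 35.1% of all genes tested. For 2 genes, Ube2c and Smc4, every Torin-2 library was above, where this held for 35.1% of all genes tested. Of the 37 falls, 29 were also called with each of the 9 libraries left out in turn, and those of Foxm1, Cenpe, Cdca8, Kif23, Kif2c, Ncapd2, Ect2 and Cdca3 were not.

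Rapamycin against vehicle asks the same of inhibition of mTORC1. Of the 47 genes 41 fell, 1 rose and 5 did not pass, against a background of 26.2% that fell and 24.6% that rose. The median log2 fold change was -1.53, a 2.89-fold lower level, against 0.00 over all genes tested. At least 2-fold lower were 37 genes, against 5.15% of all genes. The groups did not overlap for 38 genes that were lower and for 1 that was higher, where the background had 29.7% lower and 27.8% higher. The falls of Cdc20, Kif20a, Kif2c and Ckap2 were lost when some single libraries were left out, and the other 37 falls held. Since both comparisons use the same 3 vehicle libraries, the fold changes of a gene in them are not independent.

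Torin-2 against rapamycin sets the agents side by side, with the vehicle libraries entering only the shared estimate of the spread and the scaling. Here 11 genes were higher with Torin-2, 2 were lower and 34 did not pass, where 24.2% of all genes tested rose and 24.1% fell. The share that rose is close to the background and the share that fell is below it. The median log2 fold change was 0.37, against -0.0007 over all genes tested. A log2 fold change below 0 was seen for 11 of the 47 genes, against 6266 of the 12511 tested. The group means ran in the order rapamycin, Torin-2, vehicle from low to high for 32 genes and in the order Torin-2, rapamycin, vehicle for 10. In 14 genes every Torin-2 library was above every rapamycin library and in 3 below, against 28.9% and 28.2% of all genes tested. The rises of Ube2c, Cdc20, Stmn1 and Smc4 were called with each library left out in turn. Those of Ndc80, Birc5, Cdca3, Ccnb2, Bub1, Ncapd2 and Racgap1 were not, and the count of rises ran from 4, without Torin-2 replicate 3 or without rapamycin replicate 1 or 2, to 15, without vehicle replicate 3.

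**Figure D2:**
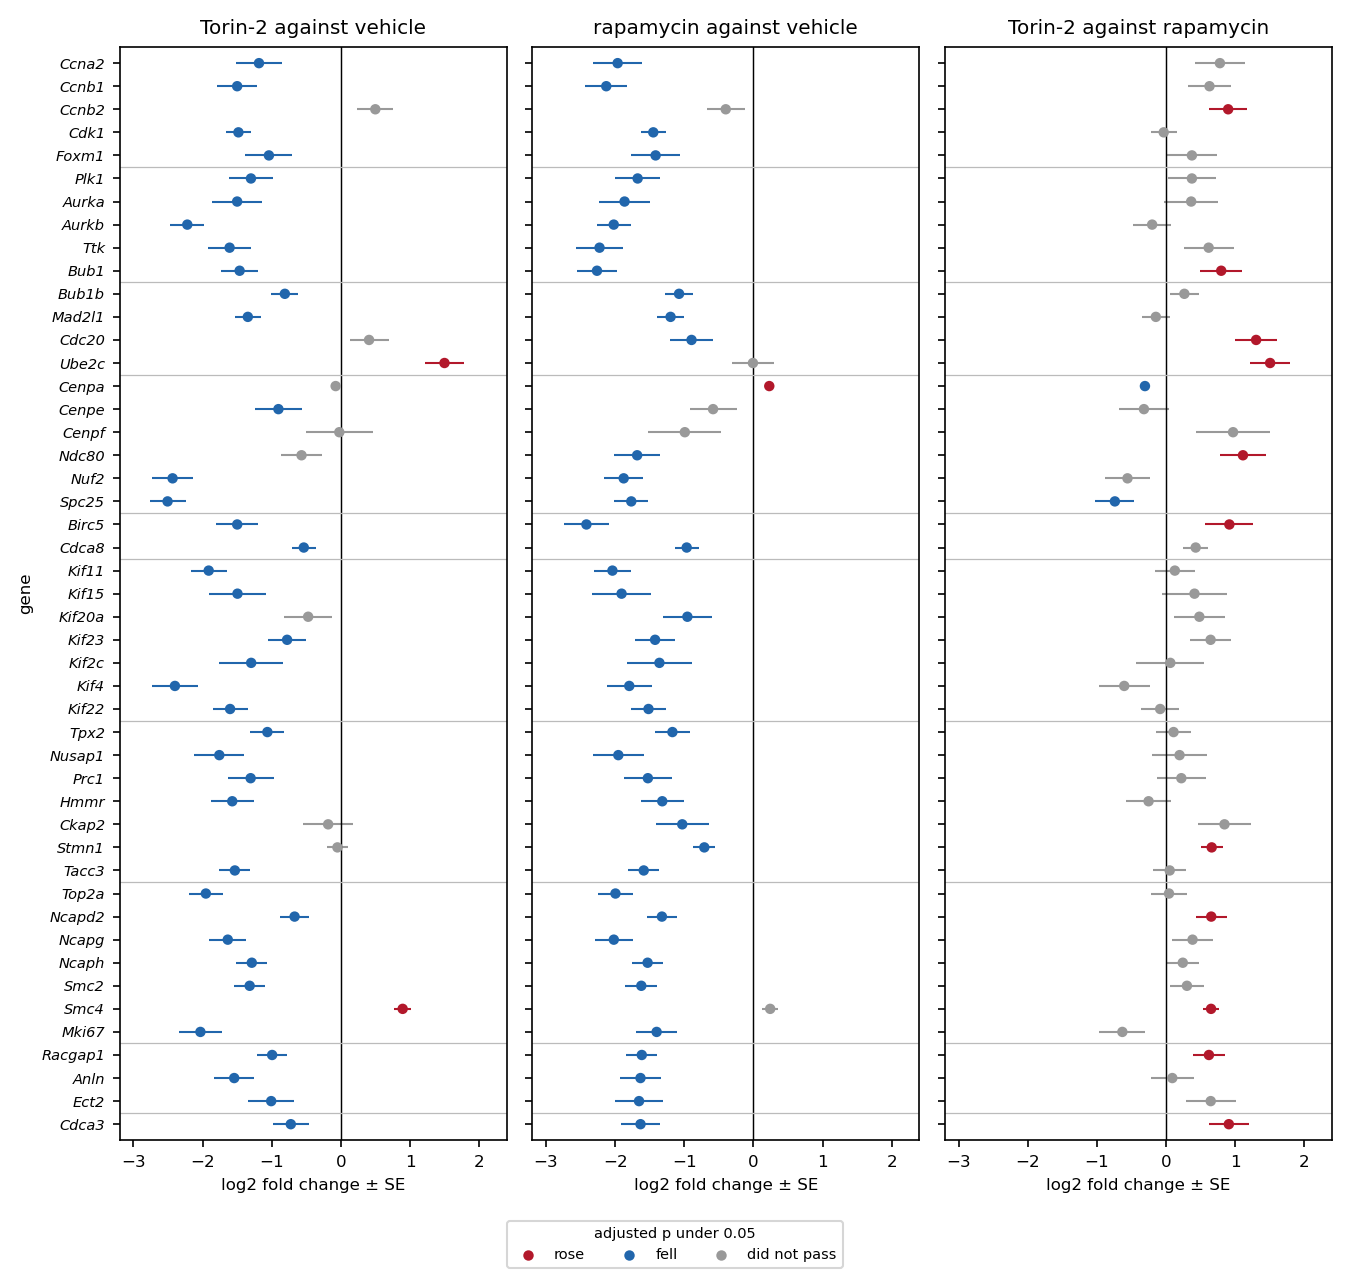
Log2 fold change (point) with its standard error (line) of the 47 genes in the 3 comparisons, grouped by role. Most genes lie left of 0 against vehicle, with medians of -1.30 for Torin-2 and -1.53 for rapamycin, while Ube2c and Smc4 lie right of 0 with Torin-2, and between the agents 34 genes did not pass.

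**Figure D3:**
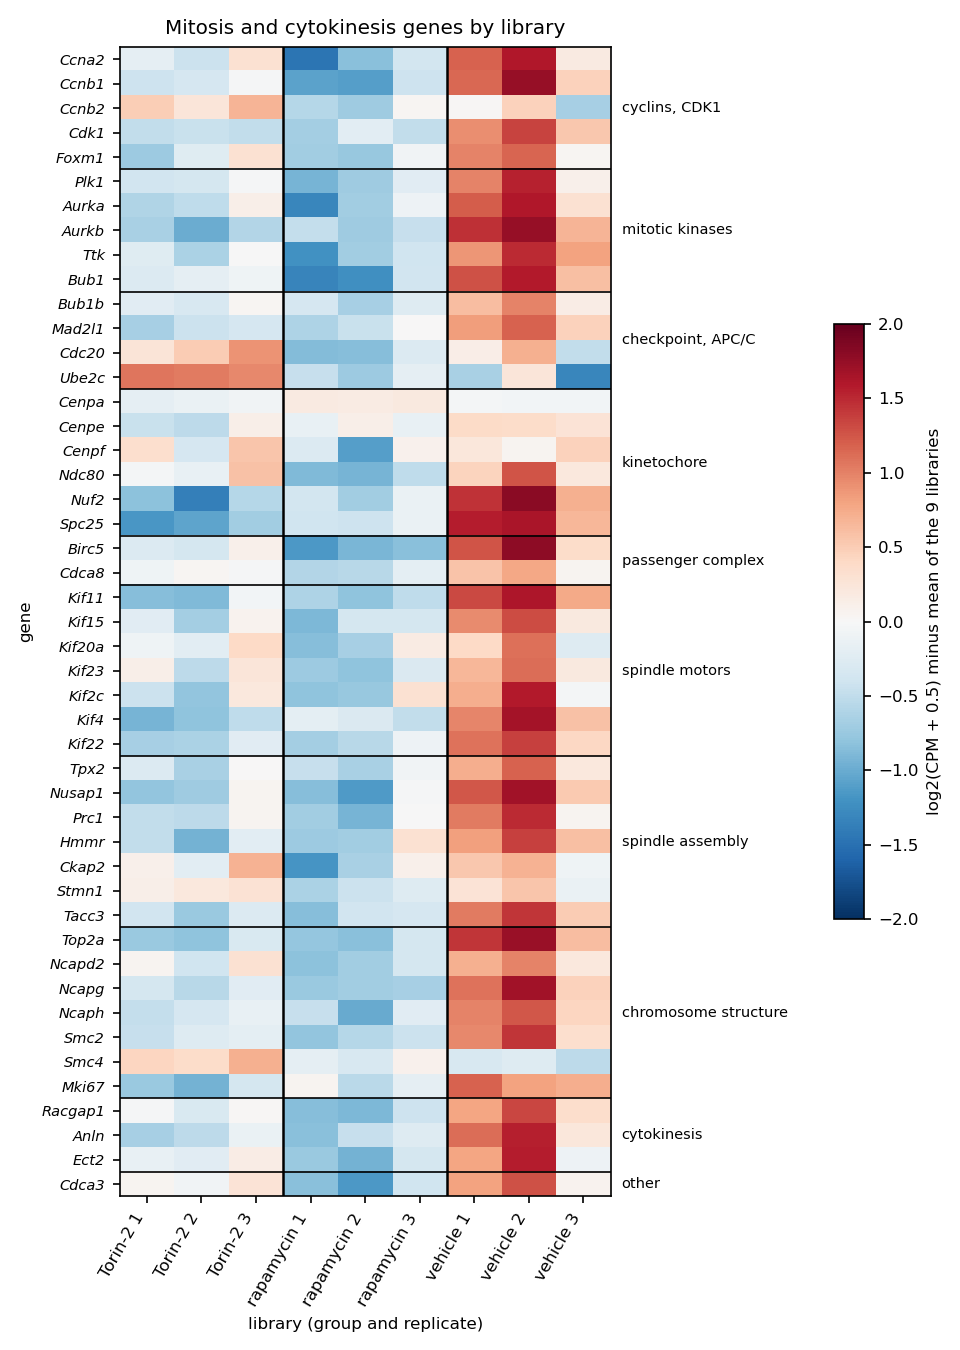
Level of each of the 47 genes in each library as log2(CPM + 0.5) minus the mean of the 9 libraries, with Torin-2, rapamycin and vehicle from left to right and genes grouped by role. Vehicle replicates 1 and 2 are high for most genes and vehicle replicate 3 is lower, at a summed level of 553 CPM against 832 and 1090 CPM.

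Against vehicle the cyclins did not move as one. Ccnb1, the cyclin B1 that activates CDK1 at the start of mitosis, stood at 7.38, 7.81 and 9.82 CPM in the Torin-2 libraries, at 4.51, 4.36 and 7.32 CPM in the rapamycin libraries and at 22.8, 34.5 and 13.9 CPM in the vehicle libraries. All treated libraries were below all vehicle libraries, and the log2 fold changes were -1.50 ± 0.29 (SE) with Torin-2 and -2.13 ± 0.30 with rapamycin, with adjusted p of 0.000595 and 0.000124 (edgeR, Benjamini-Hochberg). Each Torin-2 library was above each rapamycin library, but that difference of 0.63 ± 0.32 did not pass (edgeR, adjusted p 0.12). It passed without vehicle replicate 2 (edgeR, adjusted p 0.0482), vehicle replicate 3 (0.0361) or replicate 3 of every group (0.0149). The same held with only those 2 groups fitted (0.0290) and with no filter on low counts (edgeR, 5.22e-05). Ccnb2, which encodes the related cyclin B2, stood at 14.5, 12.2 and 16.6 CPM with Torin-2, at 6.69, 6.06 and 10.5 CPM with rapamycin and at 10.4, 14.2 and 6.26 CPM with vehicle. Vehicle overlapped both agents, and neither comparison with vehicle passed (log2 fold changes 0.50 ± 0.26 and -0.40 ± 0.27; adjusted p 0.115 and 0.247, edgeR, Benjamini-Hochberg). Each Torin-2 library was above each rapamycin library, and Ccnb2 was higher by 0.90 ± 0.27 on the log2 scale (adjusted p 0.0165, edgeR, Benjamini-Hochberg). That call was lost without Torin-2 replicate 3 (adjusted p 0.0621), rapamycin replicate 1 (0.0616) or rapamycin replicate 2 (0.0689), and without vehicle replicate 2 Ccnb2 was called higher with Torin-2 than with vehicle (0.79, edgeR, adjusted p 0.0171). With rapamycin it was called lower than with vehicle without vehicle replicate 3 (-0.66, edgeR adjusted p 0.0299) and without replicate 3 of every group (-0.95, 0.0011). With no filter on low counts both comparisons with vehicle passed (0.51 and -0.40, edgeR adjusted p 0.000467 and 0.0182). The log2 fold changes were then nearly those of the main fit.

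Cdk1 itself, the kinase of these cyclins, stood at 14.7, 15.3 and 14.8 CPM with Torin-2, at 12.8, 18 and 14.7 CPM with rapamycin and at 40.5, 54.0 and 30.5 CPM with vehicle. Both agents brought it below all vehicle libraries and the agents overlapped, with log2 fold changes of -1.48 ± 0.18 for Torin-2, -1.45 ± 0.18 for rapamycin and -0.03 ± 0.19 between them. Ccna2, the cyclin A2 that acts from S phase to early mitosis, stood at 14.1, 11.7 and 20.0 CPM with Torin-2, at 5.54, 8.76 and 12.3 CPM with rapamycin and at 37.0, 49.9 and 18.1 CPM with vehicle. Torin-2 replicate 3 was above vehicle replicate 3, so that Torin-2 and vehicle overlapped, and Ccna2 fell by 1.19 ± 0.33 with Torin-2 and by 1.96 ± 0.35 with rapamycin on the log2 scale. Its difference of 0.78 ± 0.36 between Torin-2 and rapamycin did not pass (edgeR, adjusted p 0.0961). It passed without vehicle replicate 3 (0.0241) or replicate 3 of every group (edgeR, adjusted p 0.00883). The same held with only those 2 groups fitted (0.0301) and with no filter on low counts (edgeR, 4.26e-10). Foxm1, the transcription factor that activates many of these genes, stood at 2.41, 3.56 and 5.38 CPM with Torin-2, at 2.45, 2.32 and 4.06 CPM with rapamycin and at 9.03, 10.2 and 4.43 CPM with vehicle. Here too Torin-2 replicate 3 was above vehicle replicate 3. The log2 fold changes of Foxm1 were -1.04 ± 0.34 and -1.42 ± 0.35, and the Torin-2 call was lost without Torin-2 replicate 1 (adjusted p 0.0728), Torin-2 replicate 2 (0.0530), vehicle replicate 1 (0.0609) or vehicle replicate 2 (edgeR, 0.0682).

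All 5 mitotic kinases fell with both agents. Their median log2 fold changes were -1.50 with Torin-2 and -2.02 with rapamycin, and no treated library reached a vehicle library for any of them. Aurkb, the kinase of the chromosomal passenger complex, which corrects faulty attachments of chromosomes to the spindle, stood at 4.06, 3.08 and 4.23 CPM with Torin-2, at 4.63, 3.88 and 4.66 CPM with rapamycin and at 19.1, 23.4 and 10.9 CPM with vehicle. It had the largest fall of the 5 with Torin-2 (log2 fold change -2.22 ± 0.25) and one of -2.02 ± 0.25 with rapamycin. Plk1, a kinase of centrosome maturation and mitotic entry, had the smallest with Torin-2, at 5.03, 5.15 and 6.62 CPM with Torin-2, 3.28, 3.93 and 5.71 CPM with rapamycin and 14.0, 20.5 and 7.22 CPM with vehicle, for log2 fold changes of -1.30 ± 0.31 and -1.68 ± 0.33. Aurka, the spindle pole kinase, and Ttk, which starts the spindle checkpoint, had log2 fold changes of -1.50 and -1.61 with Torin-2 and of -1.86 and -2.23 with rapamycin.

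Bub1, a checkpoint kinase at the kinetochore, stood at 5.40, 5.79 and 6.25 CPM with Torin-2, at 2.38, 2.56 and 5.01 CPM with rapamycin and at 16.8, 21.1 and 10.4 CPM with vehicle. The 3 groups did not overlap, and the log2 fold changes were -1.47 ± 0.27 with Torin-2, -2.26 ± 0.29 with rapamycin and 0.80 ± 0.31 between the agents. The difference between the agents (edgeR, Benjamini-Hochberg adjusted p 0.0488) was lost without any single one of 6 libraries, namely the Torin-2 libraries, rapamycin replicates 1 and 2 and vehicle replicate 1, with adjusted p up to 0.164.

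The genes that restrain or start anaphase split. The checkpoint proteins Mad2l1 and Bub1b, which hold back the anaphase-promoting complex, fell with both agents. Mad2l1 stood at 11.6, 13.9 and 14.8 CPM with Torin-2, at 12.1, 13.7 and 18.8 CPM with rapamycin and at 33.9, 43.0 and 25.9 CPM with vehicle, without overlap between vehicle and either agent. Its log2 fold changes were -1.35 ± 0.19 with Torin-2 and -1.20 ± 0.19 with rapamycin, and those of Bub1b were -0.81 ± 0.20 and -1.08 ± 0.20. Cdc20, the activator of the complex that the checkpoint holds, stood at 9.04, 10.8 and 14.4 CPM with Torin-2, at 3.86, 3.93 and 6.07 CPM with rapamycin and at 8.22, 12.6 and 5.15 CPM with vehicle. Torin-2 and vehicle overlapped (log2 fold change 0.41 ± 0.28, adjusted p 0.224, edgeR, Benjamini-Hochberg), and each Torin-2 library was above each rapamycin library (1.30 ± 0.30, adjusted p 0.00369). Against vehicle Cdc20 fell with rapamycin by 0.90 ± 0.30 on the log2 scale, a call lost without rapamycin replicate 1 (edgeR, adjusted p 0.0918), rapamycin replicate 2 (0.0913), vehicle replicate 1 (0.0523) or vehicle replicate 2 (0.131), and without vehicle replicate 2 Cdc20 passed as higher with Torin-2 than with vehicle (0.0213), as it did with no filter on low counts (0.0124).

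Ube2c, the ubiquitin-conjugating enzyme that works with the anaphase-promoting complex, was the gene with the largest rise. It stood at 35.5, 34.9 and 33 CPM in the Torin-2 libraries, at 11.9, 9.90 and 14.6 CPM in the rapamycin libraries and at 10.4, 19.8 and 6.45 CPM in the vehicle libraries. Every Torin-2 library was above every other library, and rapamycin and vehicle overlapped. Ube2c averaged 34.4 ± 1.31 CPM with Torin-2, 12.1 ± 2.35 CPM with rapamycin and 12.2 ± 6.82 CPM with vehicle (SD, n = 3 each). The log2 fold change was 1.50 ± 0.29 for Torin-2 against vehicle and 1.51 ± 0.29 for Torin-2 against rapamycin, with adjusted p of 0.000598 and 0.00107 (edgeR, Benjamini-Hochberg). For rapamycin against vehicle it was -0.01 ± 0.30. Within a replicate number, the Torin-2 library exceeded the vehicle library by 1.72, 0.81 and 2.27 in log2(CPM + 0.5) for replicates 1, 2 and 3, and the rise was called with any library left out.

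The kinetochore genes ranged from large falls to a small rise with rapamycin. Spc25, a subunit of the Ndc80 complex that links kinetochores to microtubules, stood at 2.09, 2.29 and 3.08 CPM with Torin-2, at 3.93, 3.84 and 4.81 CPM with rapamycin and at 16.7, 17.5 and 8.71 CPM with vehicle. The 3 groups did not overlap, and the log2 fold change with Torin-2, -2.51 ± 0.26 (edgeR, Benjamini-Hochberg adjusted p 4.28e-06), was the lowest of the 47 genes. With rapamycin it was -1.77 ± 0.25, and the difference between Torin-2 and rapamycin, -0.74 ± 0.28, passed with an adjusted p of 0.0478 by edgeR with the Benjamini-Hochberg adjustment. That difference was lost without any single one of 6 libraries, namely Torin-2 replicates 1 and 2, the rapamycin libraries and vehicle replicate 1, with adjusted p up to 0.143, and when libraries were scaled by their totals alone (0.0759).

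Nuf2, the partner of Ndc80 in the complex, averaged 2.95 ± 0.917 CPM with Torin-2, 4.40 ± 0.929 CPM with rapamycin and 16.2 ± 5.89 CPM with vehicle, with log2 fold changes of -2.43 ± 0.29 and -1.88 ± 0.28. Ndc80 itself stood at 3.53, 3.24 and 5.71 CPM with Torin-2, at 1.74, 1.66 and 2.41 CPM with rapamycin and at 5.10, 9.37 and 4.28 CPM with vehicle. Torin-2 replicate 3 lay within the vehicle range and the rapamycin libraries lay below all others. Its log2 fold changes were -0.57 ± 0.30 with Torin-2 (adjusted p 0.117), -1.68 ± 0.33 with rapamycin (0.00124) and 1.11 ± 0.34 for Torin-2 against rapamycin (edgeR, Benjamini-Hochberg, 0.0171). A fall with Torin-2 passed without Torin-2 replicate 3 (log2 fold change -0.88, edgeR adjusted p 0.0357), vehicle replicate 3 (-0.78, 0.0359) or replicate 3 of every group (-1.09, 0.00466) and with no filter on low counts (-0.55, 0.0151), and the difference between the agents was lost without Torin-2 replicate 3 (0.80, 0.0883), rapamycin replicate 1 (1.05, 0.0549) or rapamycin replicate 2 (1.00, 0.0622). Spc24, the remaining subunit, which is not among the 47 and was added here after its values were seen, fell with both agents (log2 fold changes -2.23 ± 0.37 and -2.29 ± 0.38).

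Cenpa (ENSMUSG00000029177, chr5:30666777-30674830, plus strand, GRCm38), the histone H3 variant that marks the centromere, varied little within groups. It stood at 48.7, 50.4 and 52.4 CPM with Torin-2, at 62.3, 61.7 and 63.4 CPM with rapamycin and at 53.7, 53.2 and 53.0 CPM with vehicle. The rapamycin libraries were above all others, with a log2 fold change against vehicle of 0.23 ± 0.05 (edgeR, Benjamini-Hochberg adjusted p 0.00335). Scaled by library totals alone, that rise was 0.13 and did not pass (edgeR, adjusted p 0.0577). With Torin-2 the value was -0.08 ± 0.05 against vehicle, which did not pass, and -0.31 ± 0.05 against rapamycin, which did.

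Cenpf, an outer kinetochore protein, and Cenpe, a kinesin of the kinetochore, were among the least abundant genes, with as few as 3 and 8 counts in a library. Cenpf stood at 1.23, 0.585 and 1.52 CPM with Torin-2, at 0.644, 0.142 and 0.952 CPM with rapamycin and at 1.11, 0.922 and 1.40 CPM with vehicle. All 3 groups overlapped and Cenpf passed in no comparison, with log2 fold changes of -0.02 ± 0.48, -0.99 ± 0.53 and 0.97 ± 0.53. With the replicate number as a block, Cenpf was lower with rapamycin than with vehicle (edgeR, adjusted p 0.0292) and higher with Torin-2 than with rapamycin (0.0440), and without rapamycin replicate 3 it was lower with rapamycin than with vehicle (0.0454). Cenpe fell with Torin-2 (log2 fold change -0.90 ± 0.34, edgeR, Benjamini-Hochberg adjusted p 0.0358), a call lost without Torin-2 replicate 1 or 2 or any vehicle library (adjusted p 0.0558 to 0.122), when low counts were not filtered (0.0739) and in DESeq2 (0.0821). With rapamycin its log2 fold change of -0.58 ± 0.34 did not pass.

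**Figure D4:**
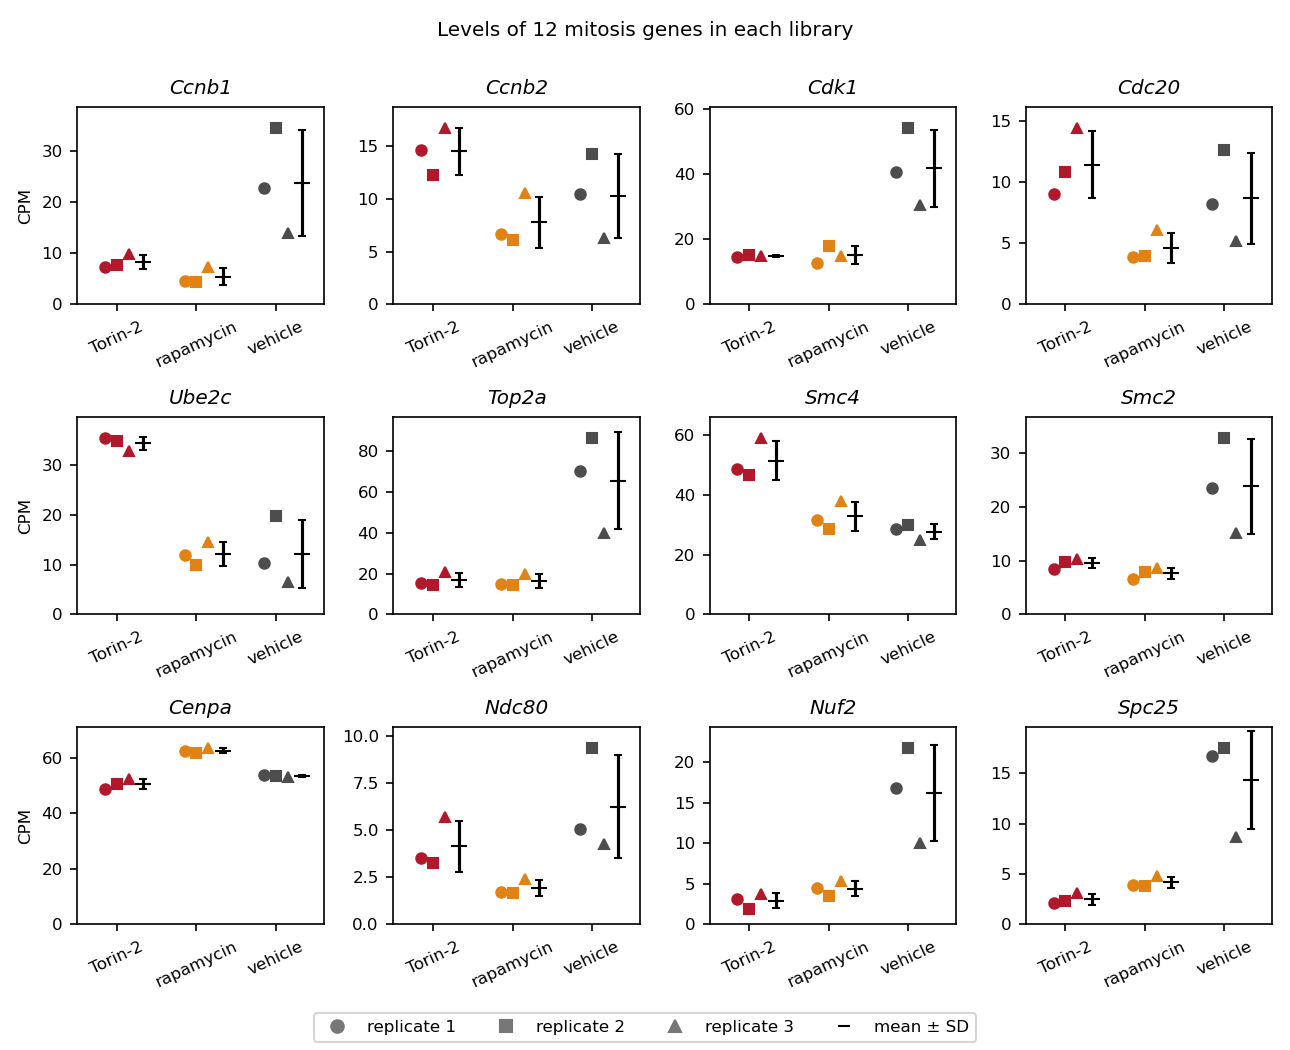
Level in CPM of 12 genes in each library (circle, square and triangle for replicates 1, 2 and 3) with the mean ± SD of 3 libraries, for Torin-2, rapamycin and vehicle from left to right. Ccnb1, Cdk1, Top2a, Smc2, Nuf2 and Spc25 are low with both agents, Ube2c and Smc4 are highest with Torin-2, and Cenpa stays between 48.7 and 63.4 CPM.

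Birc5 and Cdca8, which sit with Aurkb in the chromosomal passenger complex, fell with both agents. Birc5, survivin, stood at 4.17, 3.93 and 5.55 CPM with Torin-2, at 2.06, 2.51 and 2.66 CPM with rapamycin and at 13.1, 19.1 and 6.79 CPM with vehicle. The 3 groups did not overlap, and its log2 fold change of -2.42 ± 0.33 with rapamycin was the lowest of the 47 genes in that comparison, against -1.50 ± 0.30 with Torin-2. Birc5 was higher with Torin-2 than with rapamycin by 0.92 ± 0.35 on the log2 scale (edgeR, Benjamini-Hochberg adjusted p 0.0463), a call that held only without vehicle replicate 2 or 3 among the 9 libraries left out in turn (adjusted p up to 0.156 without another one). Cdca8, borealin, which ties the complex to the centromere, had smaller falls of 0.54 ± 0.17 with Torin-2 and 0.97 ± 0.18 with rapamycin on the log2 scale, and the fall with Torin-2 was lost without Torin-2 replicate 1 (edgeR, adjusted p 0.0526), vehicle replicate 1 (0.0503) or vehicle replicate 2 (0.0692).

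Of the 7 spindle motors, kinesins that push, pull or carry along microtubules, 7 fell with rapamycin and 6 with Torin-2. Kif4, a motor on chromosome arms, stood at 0.642, 0.744 and 1.03 CPM with Torin-2, at 1.42, 1.28 and 1.05 CPM with rapamycin and at 3.81, 6.41 and 2.79 CPM with vehicle. Its log2 fold changes were -2.40 ± 0.34 with Torin-2 and -1.80 ± 0.32 with rapamycin, without overlap with vehicle. Kif20a, a motor of the midzone and cytokinesis, stood at 5.83, 5.31 and 8.34 CPM with Torin-2, at 3.22, 3.74 and 6.97 CPM with rapamycin and at 8.31, 13.9 and 5.10 CPM with vehicle. Vehicle replicate 3 lay below every Torin-2 library, and the log2 fold change with Torin-2, -0.47 ± 0.35, did not pass. It passed without vehicle replicate 3 (-0.76, edgeR adjusted p 0.0442), without replicate 3 of every group (-0.99, 0.00283) and with no filter on low counts (-0.46, 0.0127). The fall of Kif20a with rapamycin (-0.96 ± 0.36, edgeR, Benjamini-Hochberg adjusted p 0.0428) was lost without Torin-2 replicate 1 or 2, rapamycin replicate 1 or 2, or vehicle replicate 1 or 2 (adjusted p 0.0525 to 0.214), and with only those 2 groups fitted (0.0701).

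Among the other motors, Kif11, which drives the spindle poles apart, had log2 fold changes of -1.91 ± 0.26 with Torin-2 and -2.04 ± 0.27 with rapamycin. Kif15, which helps keep the poles apart, had values of -1.50 ± 0.41 and -1.91 ± 0.43, and the chromosome arm motor Kif22 of -1.60 ± 0.25 and -1.52 ± 0.25. Kif23, a subunit of centralspindlin, fell by 0.78 ± 0.27 and 1.42 ± 0.28 on the log2 scale, the first of which was lost without Torin-2 replicate 2 (edgeR, adjusted p 0.0868) or vehicle replicate 2 (0.113). For Kif2c, which takes microtubule ends apart, the log2 fold changes were -1.30 ± 0.46 and -1.36 ± 0.47. Both calls were lost without vehicle replicate 2 (log2 fold changes -0.75 and -0.81) and without replicate 1 or 2 of the treated group, with adjusted p of 0.0773 to 0.152 (edgeR).

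Of the 7 spindle assembly proteins, 7 fell with rapamycin and 5 with Torin-2. Nusap1, which bundles microtubules near chromosomes, stood at 2.78, 2.98 and 5.38 CPM with Torin-2, at 2.64, 2.08 and 5.11 CPM with rapamycin and at 12.9, 17.7 and 7.70 CPM with vehicle. No treated library reached vehicle, and the log2 fold changes were -1.76 ± 0.36 and -1.95 ± 0.37. Stmn1, stathmin, which binds tubulin and destabilises microtubules, stood at 18.4, 19.6 and 20.8 CPM with Torin-2, at 10.7, 12.5 and 14.0 CPM with rapamycin and at 20.6, 25.0 and 15.5 CPM with vehicle. The Torin-2 libraries lay inside the vehicle range and the rapamycin libraries below both, with log2 fold changes of -0.05 ± 0.15 for Torin-2 against vehicle, -0.71 ± 0.16 for rapamycin against vehicle and 0.66 ± 0.16 for Torin-2 against rapamycin (edgeR, Benjamini-Hochberg adjusted p 0.783, 0.00271 and 0.00459). Ckap2, a spindle pole protein, had a log2 fold change of -0.19 ± 0.36 with Torin-2, which passed only without replicate 3 of every group (-0.76, edgeR adjusted p 0.0172), and of -1.03 ± 0.38 with rapamycin, a fall lost without Torin-2 replicate 1, rapamycin replicate 1 or 2, or vehicle replicate 1 or 2 (edgeR, adjusted p 0.0559 to 0.137), and with only those 2 groups fitted (0.0520). Tpx2, the activator of Aurora A, Prc1, which crosslinks the central spindle, Hmmr, a spindle pole adaptor, and Tacc3, which stabilises kinetochore fibres, fell with both agents, with log2 fold changes from -1.57 to -1.06 with Torin-2 and from -1.59 to -1.17 with rapamycin.

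Condensin, the ring that compacts mitotic chromosomes, also came apart at the level of its transcripts. Smc4 (ENSMUSG00000034349, chr3:69004738-69034623, plus strand, GRCm38) stood at 48.7, 46.5 and 58.9 CPM with Torin-2, at 31.6, 28.6 and 38 CPM with rapamycin and at 28.4, 29.7 and 24.9 CPM with vehicle. Every Torin-2 library was above every other library, and Smc4 rose by 0.89 ± 0.12 against vehicle and by 0.65 ± 0.12 against rapamycin on the log2 scale, with adjusted p of 3.25e-05 and 0.000721 (edgeR, Benjamini-Hochberg). Rapamycin and vehicle overlapped, and the log2 fold change of 0.24 ± 0.12 did not pass. It passed without rapamycin replicate 2 (0.33, edgeR adjusted p 0.0463) and with no filter on low counts (0.25, 0.0295). Smc2, which forms the ring together with Smc4, fell instead, to 9.50 ± 0.936 CPM with Torin-2 and 7.69 ± 1.00 CPM with rapamycin, against 23.8 ± 8.85 CPM with vehicle (SD, n = 3 each), with log2 fold changes of -1.32 ± 0.23 and -1.62 ± 0.23.

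The subunits Ncapg and Ncaph, which belong to condensin I, fell as well, with log2 fold changes of -1.64 ± 0.26 and -1.29 ± 0.22 with Torin-2 and of -2.02 ± 0.28 and -1.53 ± 0.23 with rapamycin. Ncapd2, the remaining subunit of condensin I, stood at 13.7, 9.94 and 16.4 CPM with Torin-2, at 7.27, 7.96 and 10.2 CPM with rapamycin and at 22.0, 26.6 and 15.4 CPM with vehicle. Torin-2 replicate 3 was above vehicle replicate 3 and Torin-2 replicate 2 below rapamycin replicate 3, so that Torin-2 overlapped both other groups. Its log2 fold changes were -0.67 ± 0.21, -1.32 ± 0.22 and, for Torin-2 against rapamycin, 0.65 ± 0.23. The fall with Torin-2 was lost without Torin-2 replicate 2 (edgeR, adjusted p 0.0595) or vehicle replicate 2 (0.0651), and the difference between the agents without Torin-2 replicate 1 or 3 or rapamycin replicate 1 or 2 (0.0742 to 0.139).

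Top2a, the topoisomerase that untangles sister chromatids, fell to 16.8 ± 3.40 CPM with Torin-2 and 16.4 ± 3.20 CPM with rapamycin, against 65.4 ± 23.6 CPM with vehicle (SD, n = 3 each). The log2 fold changes were -1.95 ± 0.25 and -2.0 ± 0.25, and the agents differed by 0.04 ± 0.26. Mki67, which encodes the proliferation marker Ki-67, a coat of mitotic chromosomes, was low throughout, at 0.749, 0.585 and 1.15 CPM with Torin-2, 1.67, 0.947 and 1.35 CPM with rapamycin and 4.24, 3.15 and 2.98 CPM with vehicle. Both agents lay below vehicle, with log2 fold changes of -2.03 ± 0.31 and -1.40 ± 0.29 (edgeR, Benjamini-Hochberg adjusted p 9.6e-05 and 0.00196).

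All 3 cytokinesis genes fell with both agents. Racgap1, the partner of Kif23 in centralspindlin, stood at 20.5, 16.7 and 21.1 CPM with Torin-2, at 11.3, 11 and 15.6 CPM with rapamycin and at 36.3, 53.5 and 26.6 CPM with vehicle. The 3 groups did not overlap, and the log2 fold changes were -1.0 ± 0.22 with Torin-2, -1.62 ± 0.23 with rapamycin and 0.62 ± 0.23 between the agents. That last difference (edgeR, Benjamini-Hochberg adjusted p 0.0425) was lost without Torin-2 replicate 1 or 3, rapamycin replicate 1 or 2, or vehicle replicate 1 (0.0560 to 0.137). Anln, anillin, the scaffold of the contractile ring, stood at 5.29, 5.90 and 7.93 CPM with Torin-2, at 4.63, 6.16 and 7.17 CPM with rapamycin and at 19.4, 26.5 and 10.3 CPM with vehicle. The agents overlapped each other and neither reached vehicle, with log2 fold changes of -1.54 ± 0.29 and -1.63 ± 0.30. Ect2, which activates RhoA at the furrow, had log2 fold changes of -1.01 ± 0.33 and -1.66 ± 0.35, and the Torin-2 call was lost without Torin-2 replicate 1 (edgeR, adjusted p 0.0578), Torin-2 replicate 2 (0.0620) or vehicle replicate 2 (-0.50, 0.107).

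Cdca3, a protein of mitotic entry that fits none of these roles, stood at 11.9, 10.9 and 13.9 CPM with Torin-2, at 6.18, 4.88 and 8.57 CPM with rapamycin and at 20.4, 28.4 and 12.1 CPM with vehicle. Torin-2 replicate 3 was above vehicle replicate 3, while Torin-2 and rapamycin did not overlap. Cdca3 fell by 0.73 ± 0.26 with Torin-2 and by 1.63 ± 0.28 with rapamycin on the log2 scale and was higher with Torin-2 than with rapamycin by 0.91 ± 0.28 (edgeR, Benjamini-Hochberg adjusted p 0.0285, 0.000478 and 0.0202). The fall with Torin-2 was lost without Torin-2 replicate 1 or 2 or vehicle replicate 1 or 2 (0.0623 to 0.146), and the difference between the agents without Torin-2 replicate 3 or rapamycin replicate 1 or 2 (edgeR, 0.0605 to 0.0830).

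The differences within a replicate number were smaller in replicate 3, where the vehicle library was the lowest of its group for most genes and both treated libraries the highest of theirs. Within replicate 1 the median difference in log2(CPM + 0.5) over the 47 genes was -1.36 for Torin-2 against vehicle, within replicate 2 it was -1.79 and within replicate 3 it was -0.19. The Torin-2 library was below the vehicle library of its number for 42, 45 and 31 of the 47 genes. For rapamycin against vehicle the medians were -1.64, -2.0 and -0.49, with 44, 46 and 39 genes lower. Between the agents the numbers gave similar medians of 0.48, 0.31 and 0.27, with 36, 31 and 37 genes higher with Torin-2. Without replicate 3 of every group the median log2 fold changes were -1.69 for Torin-2 and -1.97 for rapamycin, all 37 falls with Torin-2 and all 41 with rapamycin were still called, and the counts of falls were 40 and 42.

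**Figure D5:**
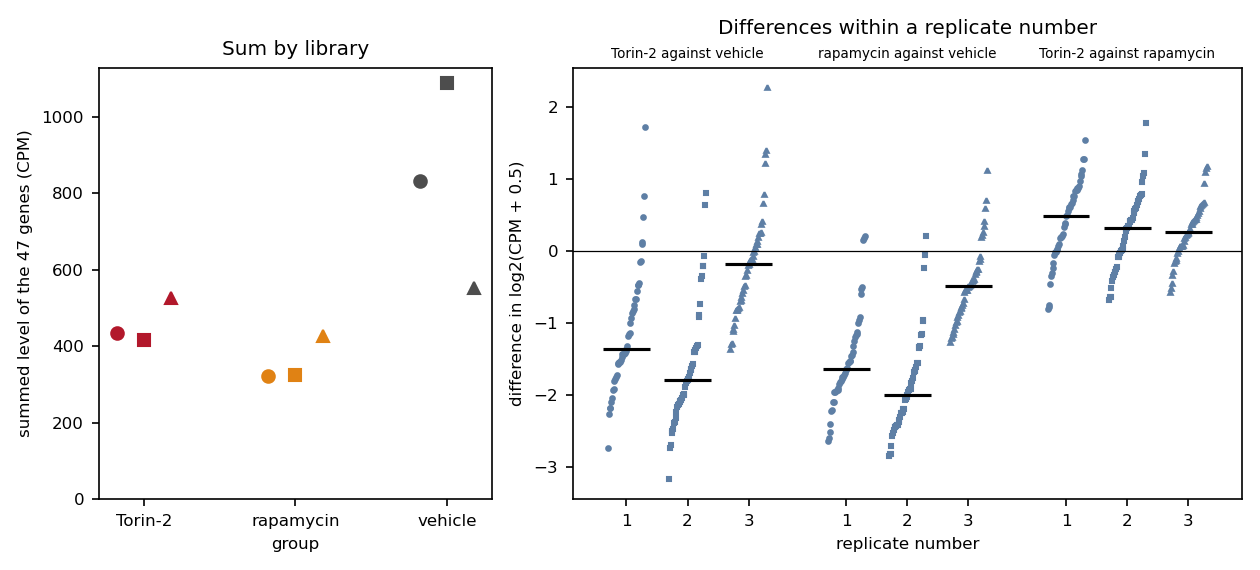
Left, the summed level of the 47 genes in CPM in each library of the Torin-2, rapamycin and vehicle groups (circle, square and triangle for replicates 1, 2 and 3). Right, the difference in log2(CPM + 0.5) of each gene between libraries of the same replicate number in the 3 comparisons, sorted from low to high, with the median as a bar, which is nearest to 0 in replicate 3 against vehicle, at -0.19 and -0.49.

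Levels can be compared between genes only per length, as RPKM over the exon length of GENCODE M21. On that scale the highest mean levels with Torin-2 were those of Ube2c (13.2 RPKM), Stmn1 (10.2 RPKM), Smc4 (9.85 RPKM), Ccnb2 (9.45 RPKM) and Cenpa (8.62 RPKM). The same genes stood at 4.67, 6.45, 6.28, 5.07 and 10.7 RPKM with rapamycin and at 4.70, 10.6, 5.31, 6.71 and 9.10 RPKM with vehicle. With vehicle the highest were Stmn1, Cenpa, Ccna2 (8.57 RPKM), Cdk1 (8.44 RPKM) and Top2a (7.26 RPKM), and Cenpf, at 0.0741 RPKM, was the lowest.

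Most genes of the same pathway outside the 47 fell as well. The counts that follow are to be read against all genes tested, of which 32.9% fell and 32.5% rose with Torin-2 against vehicle, at a median log2 fold change of -0.01, and 26.2% fell and 24.6% rose with rapamycin against vehicle, at a median of 0.00. Of 75 other tested genes of mitosis, 52 fell and 4 rose with Torin-2 and 62 fell and 0 rose with rapamycin, with median log2 fold changes of -0.82 and -1.49. By edgeR at an unadjusted p under 0.05 and by DESeq2 the rises with rapamycin were 0 too, as were the counts of 0 given for other lists in what follows. In Torin-2 against rapamycin 20 of the 75 were higher and 5 lower, where 24.2% and 24.1% of all genes were, so that the share that was higher is near the background. Their median log2 fold change there was 0.39, against -0.0007 over all genes tested. Iqgap3, a scaffold protein tied to proliferation, averaged 2.59 ± 0.894 CPM with Torin-2, 2.45 ± 0.259 CPM with rapamycin and 11.3 ± 3.68 CPM with vehicle, and cyclin F (Ccnf) had log2 fold changes of -1.57 ± 0.30 and -1.89 ± 0.31. Gtse1, which acts late in the cycle, fell by 1.54 ± 0.17 and 2.01 ± 0.18 on the log2 scale. Psrc1, a spindle protein, rose by 0.76 ± 0.21 with Torin-2 against vehicle and by 1.02 ± 0.21 against rapamycin, while its log2 fold change of -0.26 ± 0.22 with rapamycin did not pass. Ncapg2, a subunit of condensin II, averaged 42.1 ± 2.44 CPM with Torin-2, 18 ± 2.10 CPM with rapamycin and 35.2 ± 5.27 CPM with vehicle. Its Torin-2 libraries overlapped vehicle, and the log2 fold changes were 0.26 ± 0.11, which did not pass, -0.97 ± 0.12 and, between the agents, 1.23 ± 0.12 (edgeR, Benjamini-Hochberg adjusted p 0.0550, 3.59e-05 and 5.35e-06).

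Genes of DNA replication fell in similar numbers. Of 52 tested, 49 fell and 1 rose with Torin-2 and 48 fell and 2 rose with rapamycin, with medians of -1.36 and -1.43. The ribonucleotide reductase subunit Rrm2 averaged 2.82 ± 0.237 CPM with Torin-2, 7.6 ± 0.588 CPM with rapamycin and 56.1 ± 24.2 CPM with vehicle, and the PCNA-binding Pclaf had log2 fold changes of -4.98 ± 0.42 and -3.62 ± 0.37. Thymidine kinase (Tk1) had log2 fold changes of -3.58 ± 0.31 and -3.55 ± 0.31. Pcna, the sliding clamp, stood at 145, 150 and 143 CPM with Torin-2, 545, 529 and 587 CPM with rapamycin and 489, 487 and 437 CPM with vehicle. It fell by 1.69 ± 0.06 with Torin-2 and rose by 0.23 ± 0.06 with rapamycin on the log2 scale.

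Of 24 transcription regulators of the cell cycle, 9 fell and 7 rose with Torin-2 and 12 fell and 5 rose with rapamycin, and the counts with Torin-2 are near the shares of all genes. The log2 fold changes of E2f2 were -2.21 ± 0.12 and -1.20 ± 0.11, and those of the E2F partner Tfdp2 were 2.05 ± 0.18 and 0.83 ± 0.18. Myc rose with rapamycin by 1.06 ± 0.14 on the log2 scale, and its value of 0.19 ± 0.14 with Torin-2 did not pass. Of 13 G1 cyclins, their kinases and CDK inhibitors, 8 fell and 2 rose with Torin-2 and 7 fell and 2 rose with rapamycin. Cyclin D1 (Ccnd1) averaged 15.6 ± 3.54 CPM with Torin-2, 73.4 ± 17.1 CPM with rapamycin and 156 ± 17.5 CPM with vehicle, for log2 fold changes of -3.33 ± 0.19 and -1.09 ± 0.17. Cyclin D3 (Ccnd3) was lower with Torin-2 than with rapamycin, at a log2 fold change of -0.95 ± 0.11. The CDK inhibitor p27 (Cdkn1b) averaged 72.6 ± 3.00 CPM with Torin-2, 48.8 ± 6.07 CPM with rapamycin and 25.8 ± 2.77 CPM with vehicle, and rose by 1.49 ± 0.10 and 0.92 ± 0.10 on the log2 scale.

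Of 17 subunits and partners of the anaphase-promoting complex, 11 fell and 2 rose with Torin-2 and 8 fell and 0 rose with rapamycin. Anapc16, a small subunit, averaged 34.8 ± 2.85 CPM with Torin-2, 10.8 ± 0.781 CPM with rapamycin and 11.2 ± 1.51 CPM with vehicle, and Anapc15 had log2 fold changes of -0.87 ± 0.09 and -0.73 ± 0.09. The subunit Cdc16 fell by 0.56 ± 0.06 with rapamycin, and Anapc7 was higher with Torin-2 than with rapamycin by 0.36 ± 0.05, both on the log2 scale. Of 11 genes of cohesin and constitutive chromosome proteins, 9 rose and 1 fell with Torin-2 and 6 rose and 0 fell with rapamycin, with the cohesin subunit Stag2 at 0.79 ± 0.05 and 0.73 ± 0.05. The related Stag1 had log2 fold changes of 0.79 ± 0.07 and 0.22 ± 0.07, the cohesin loader Nipbl of 0.68 ± 0.18 and 0.95 ± 0.18, and the topoisomerase Top2b of -0.52 ± 0.06 and 0.06 ± 0.06, the last of which did not pass. Of 10 tubulins, 9 fell and 1 rose with Torin-2 and 8 fell and 0 rose with rapamycin, and Tuba1c averaged 45.1 ± 5.02 CPM with Torin-2, 163 ± 14.6 CPM with rapamycin and 313 ± 18.4 CPM with vehicle. Tubb4b and Tuba1a fell by 1.30 ± 0.09 and 1.06 ± 0.12 with rapamycin on the log2 scale. Tubb6 was lower with Torin-2 than with rapamycin, at a log2 fold change of -1.25 ± 0.08.

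Because the strand setting of the counting is not known, genes that share exon bases with a neighbour are less certain. In GENCODE M21 this held for 9 of the 47 genes: Ccna2 (with Exosc9), Cdc20 (Elovl1), Cdca8 (9930104L06Rik), Kif20a (Cdc23), Kif4 (Pdzd11), Nusap1 (Oip5), Prc1 (Rccd1), Tacc3 (Tmem129) and Ncapg (Lcorl). The shared part ran from 2.84% of the exon bases for Cdc20 to 29.3% for Kif20a. Of the other genes named, Tk1 (Afmid), Ccnd1 (Oraov1) and Ccnd3 (Bysl) share exon bases with a tested gene as well.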

How the data were processed

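Bulk RNA-seq was read in 9 libraries, 3 each of macrophages given Torin-2, rapamycin or vehicle. The deposited table holds raw counts per gene for each library, as the authors made them. NuGEN Universal Plus mRNA-seq libraries were sequenced as 100 bp pairs, per the labels' protocols, and the submitters' processing notes name bcl2fastq, FastQC, STAR 2.5.2a, mm10 and GRCm38.p6. Neither the counting tool nor strand or annotation version is given in the sources used here. All columns of the table were used.

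Genes kept by filterByExpr (12511 of 53342) were scaled by TMM (factors 0.955 to 1.05) and fitted in edgeR 4.0.16 with limma 3.58.1 in R 4.3.3 with the quasi-likelihood test, 3 groups in 1 fit. Benjamini-Hochberg adjustment ran over all genes tested, with a threshold of 0.05, 2-sided. The common biological coefficient of variation was 9.96%. Standard errors are the absolute log2 fold change divided by the square root of F, SDs are over the 3 libraries of a group, and CPM and RPKM were computed from the counts. The fit was also run on counts simulated from the mean level and estimated spread of each gene, without an effect of replicate number. Such a run cannot show how well the fit suits these data. Totals of 16116666 to 24044329 counts per library set the precision, and values of a few counts carry most error.

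Samples were grouped by the labels, which call them biological replicates with marrow of different animals kept apart. Libraries with the same replicate number deviated together from their group means. Their correlations across genes were 0.168 to 0.5 over 9 pairs, against -0.358 to 0.162 over 18 other pairs. The main fit did not use the number, so its tests leave this pairing out. A fit with the number as a block was an alternative. The labels do not say what the number marks. The others were RLE size factors, library totals alone, no filter on low counts, DESeq2 1.42.0, the 2 groups compared alone, each library left out in turn and replicate 3 left out of every group.

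The members and lists were chosen with earlier results of these data known, so counts are to be read against the share of all genes, and no test of a list was made. Values per library are given for the cyclins and Cdk1, for the members with the lowest and highest log2 fold change with Torin-2 in each role of 3 or more, and for every member that rose in any comparison. From each other list the 2 genes with the largest absolute log2 fold change in each comparison at a mean of at least 5 CPM are named. Gene positions and exon lengths are those of GENCODE M21 (GRCm38), and promoters those of RefSeq (GRCm38.p6).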

Additional observations from a re-analysis of the deposited data

How the results depend on the processing

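With 3 libraries a group and vehicle replicate 3 near the treated libraries, the size of a change against vehicle is imprecise, and at a few counts, as for Cenpf, a large difference may not be detectable. With one library left out at a time, 29 to 38 genes fell with Torin-2 and 37 to 42 with rapamycin against vehicle, and 2 to 4 and 1 to 2 rose, with medians from -1.56 to -0.96 and from -1.80 to -1.29. In Torin-2 against rapamycin 4 to 15 rose and 1 to 2 fell, with medians from 0.14 to 0.63. Leaving replicate 3 out of every group gave a rapamycin median of -1.97 and 16 rises between the agents. With no filter on low counts the rises were 4, 2 and 18 in the order of the comparisons. Single genes that gained a call in that fit kept nearly the same log2 fold change. For Ccna2 between the agents it was 0.78 and then 0.79, with adjusted p of 0.0961 and 4.26e-10 (edgeR). These gained calls therefore do not rest on a larger difference between groups. With library totals alone, 0 genes rose with rapamycin against vehicle (1 by edgeR at an unadjusted p under 0.05 and 1 by DESeq2), and 1 fell between the agents. The cause of these moves was not tested.

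With the replicate number as a block the pairing gave 2 rises and 37 falls with Torin-2 against vehicle, 1 and 42 with rapamycin, and 12 and 2 between the agents. The medians were then -1.28, -1.53 and 0.38, and the block changed no call of a member but those of Cenpf.

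Single values were followed for all 47 genes against vehicle and, between the agents, only for those that passed and the cyclins and Cdk1. Of these values under the alternatives, 1649 kept direction and side of the threshold, 87 lost their call, 28 gained one and 12 turned, all of these in comparisons that had not passed. Without single libraries, Cenpf with Torin-2 against vehicle ran from -0.33 to 0.26 (0.14 without vehicle replicate 3), Ckap2 from -0.53 to 0.0113 and Stmn1 from -0.22 to 0.12, and Cdc20 was -0.064 without replicate 3 of every group. Ube2c with rapamycin against vehicle ran from -0.31 to 0.51 (highest without vehicle replicate 2, edgeR adjusted p 0.0519; 0.0043 and 0.13 without rapamycin replicates 1 and 2) and was 0.0128 with only those groups and 0.0374 with the block. Cdk1 between the agents ran from -0.14 to 0.11 and was 0.0403 with library totals alone.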
